A study of Mus musculus with 76 samples.

Results

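The 9 genes described here, Gbx2, Tcf7l2, Lhx2, Lhx9, Olig3, Rora, Prox1, Slc6a4 and Calb2, were chosen by name as genes that mark the thalamus or its progenitors, out of 56923 genes counted. They were followed in embryonic mouse diencephalon through 16 RNA-seq libraries and through peak lists from chromatin immunoprecipitation (ChIP-seq) for H3K4me3, H3K27ac, H3K27me3 and CTCF. Mice were C57BL/6J and either homozygous wild type or homozygous for a humanized hs754 allele, in which the human orthologue of this enhancer replaces the mouse sequence on chromosome 13, a chromosome that carries none of the 9 genes. Tissue was taken on 2 embryonic days, E11.5, when each replicate pooled 6 embryos of a litter, and E17.5, when each pooled 3. RNA was measured in 4 replicates per genotype and stage. For ChIP, each genotype had 2 replicates on the earlier day and 3 on the later, with CTCF at E17.5 only. A pooled dissection of the whole diencephalon holds every cell type of the region, so fewer cells of a type and less RNA per cell cannot be told apart in any value below.

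The thalamus is the part of the diencephalon that relays sensory and motor signals to the cortex. Its neurons arise from ventricular zone progenitors that express the basic helix-loop-helix factor Olig3 and proneural factors, under signals from the zona limitans intrathalamica and the roof plate. On leaving the cycle they switch on homeodomain and Wnt-responsive regulators: Gbx2, needed for thalamic neurons and their axons to the cortex, Tcf7l2, a nuclear effector of Wnt signalling kept on in thalamic and habenular neurons, and the LIM homeodomain factors Lhx2 and Lhx9. Later regulators include the orphan nuclear receptor Rora, strong in sensory relay nuclei, and the homeodomain factor Prox1. Sensory thalamic neurons of rodents transiently express Slc6a4, the serotonin transporter, and Calb2 encodes calretinin, a calcium-binding protein of midline and other thalamic neurons. Of the chromatin marks, H3K4me3 lies at promoters, H3K27ac at active promoters and enhancers, and H3K27me3 is the mark of Polycomb repression. CTCF is a zinc finger protein that binds DNA at insulators and loop anchors.

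5 reference sequences are shown because later results turn on them. They were read from the mm39 mouse genome, the build of the deposited files, 5′ to 3′ on the strand named. The first pair are the 250 bases upstream of the start of Gbx2 (chr1:89858921-89859170, minus strand) and of Olig3 (chr10:19232031-19232280, plus strand), with CpG dinucleotides in capitals. They differ in CpG content, 17 CpGs in the first and 4 in the second. The third is the 250 bases upstream of Calb2 (chr8:110894882-110895131, minus strand), and the last pair are the centres of the strongest distal CTCF regions near Gbx2 (chr1:89871103-89871194, minus strand) and Lhx2 (chr2:38266124-38266215, minus strand). In those 3 sequences the capitals mark the CTCF core searched for, the letters CC, AG and GGC in that order with 3 and then 2 free bases between them, which in the Calb2 promoter reads on the opposite strand. None of the windows overlaps an exon of a protein-coding gene.
Gbx2 promoter: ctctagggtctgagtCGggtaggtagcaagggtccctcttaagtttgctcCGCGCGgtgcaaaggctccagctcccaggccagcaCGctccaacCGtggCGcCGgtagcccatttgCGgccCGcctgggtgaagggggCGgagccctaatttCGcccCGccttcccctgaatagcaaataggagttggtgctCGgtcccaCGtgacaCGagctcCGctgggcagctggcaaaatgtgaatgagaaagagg
Olig3 promoter: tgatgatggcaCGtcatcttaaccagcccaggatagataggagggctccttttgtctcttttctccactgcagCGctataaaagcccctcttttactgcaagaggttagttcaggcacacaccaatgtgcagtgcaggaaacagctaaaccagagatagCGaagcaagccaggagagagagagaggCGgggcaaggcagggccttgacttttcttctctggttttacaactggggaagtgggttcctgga
Calb2 promoter: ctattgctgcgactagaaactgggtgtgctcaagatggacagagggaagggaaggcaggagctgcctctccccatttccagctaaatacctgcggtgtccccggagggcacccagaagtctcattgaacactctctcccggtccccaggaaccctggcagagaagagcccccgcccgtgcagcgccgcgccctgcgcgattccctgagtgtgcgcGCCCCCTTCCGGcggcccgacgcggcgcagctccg
Gbx2 distal CTCF region: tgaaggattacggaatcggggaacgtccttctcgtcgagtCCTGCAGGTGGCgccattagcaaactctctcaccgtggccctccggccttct
Lhx2 distal CTCF region: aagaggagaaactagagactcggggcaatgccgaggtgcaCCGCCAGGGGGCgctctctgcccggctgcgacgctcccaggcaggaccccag

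The RNA libraries held 16414369 to 24272569 counts on genes. 1 library stood apart, E17.5 wild type replicate 1, in which 8071 of 20234 genes lay more than 1 log2 unit from the mean of the other replicates of its group, against 509 to 1522 genes in the other 15 libraries. Levels are given as CPM, counts per 1000000 counts on genes after TMM scaling of the libraries. In that library the summed CPM over 7 blood and vessel markers were 972, against 264 to 453 in the other wild type libraries of that stage, and over 25 thalamic neuron genes 2284 against 2777 to 3310. Its sum over 7 telencephalon markers was 121 against 77.7 to 82.95, and over 12 progenitor and boundary genes 180 against 97.8 to 114. Stage results are therefore also given without it. The labelled tissue was checked on 10 markers of diencephalon subdivisions, whose sum was 857 to 933 CPM at E11.5 and 214 to 275 CPM at E17.5. The hindbrain markers Hoxa2, Hoxb2, Hoxa3, Hoxb3, Egr2 and Fev summed to at most 0.575 CPM in every library. Markers of other neighbouring regions were higher. Those of pretectum and midbrain summed to 303 to 488 CPM at E11.5 and 67.1 to 102 CPM at E17.5. The telencephalon markers summed to 47.6 to 72.3 CPM and then 76.8 to 121 CPM. How much neighbouring tissue the samples held was not tested.

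Between E11.5 and E17.5 the 9 genes moved apart. In wild type, Calb2, Rora, Slc6a4, Prox1 and Lhx9 rose, Olig3 and Lhx2 fell, and Gbx2 and Tcf7l2 did not pass the test. The calls came from the quasi-likelihood F-test of edgeR at an adjusted p under 0.05, the p-values being adjusted over all genes tested by the method of Benjamini and Hochberg. So 7 of 9 genes were called, in a comparison where 55.7% of 18583 genes tested were called (29% higher and 26.7% lower). In humanized libraries all 9 were called, 7 higher and 2 lower, where 77.7% of 18781 genes were. The median log2 fold change over the 9 genes was 1.02 in wild type and 1.85 in humanized, beside -0.01 and -0.04 over all genes. The 2 stages did not overlap in wild type for 6 of the 9 genes, where 50.5% of genes tested did not, and in humanized libraries for 9 of 9, where 71.8% did not. Without E17.5 wild type replicate 1 the same 5 genes rose and the same 2 fell, while the share of all genes called went from 55.7% to 72.3%.

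**Figure D1:**
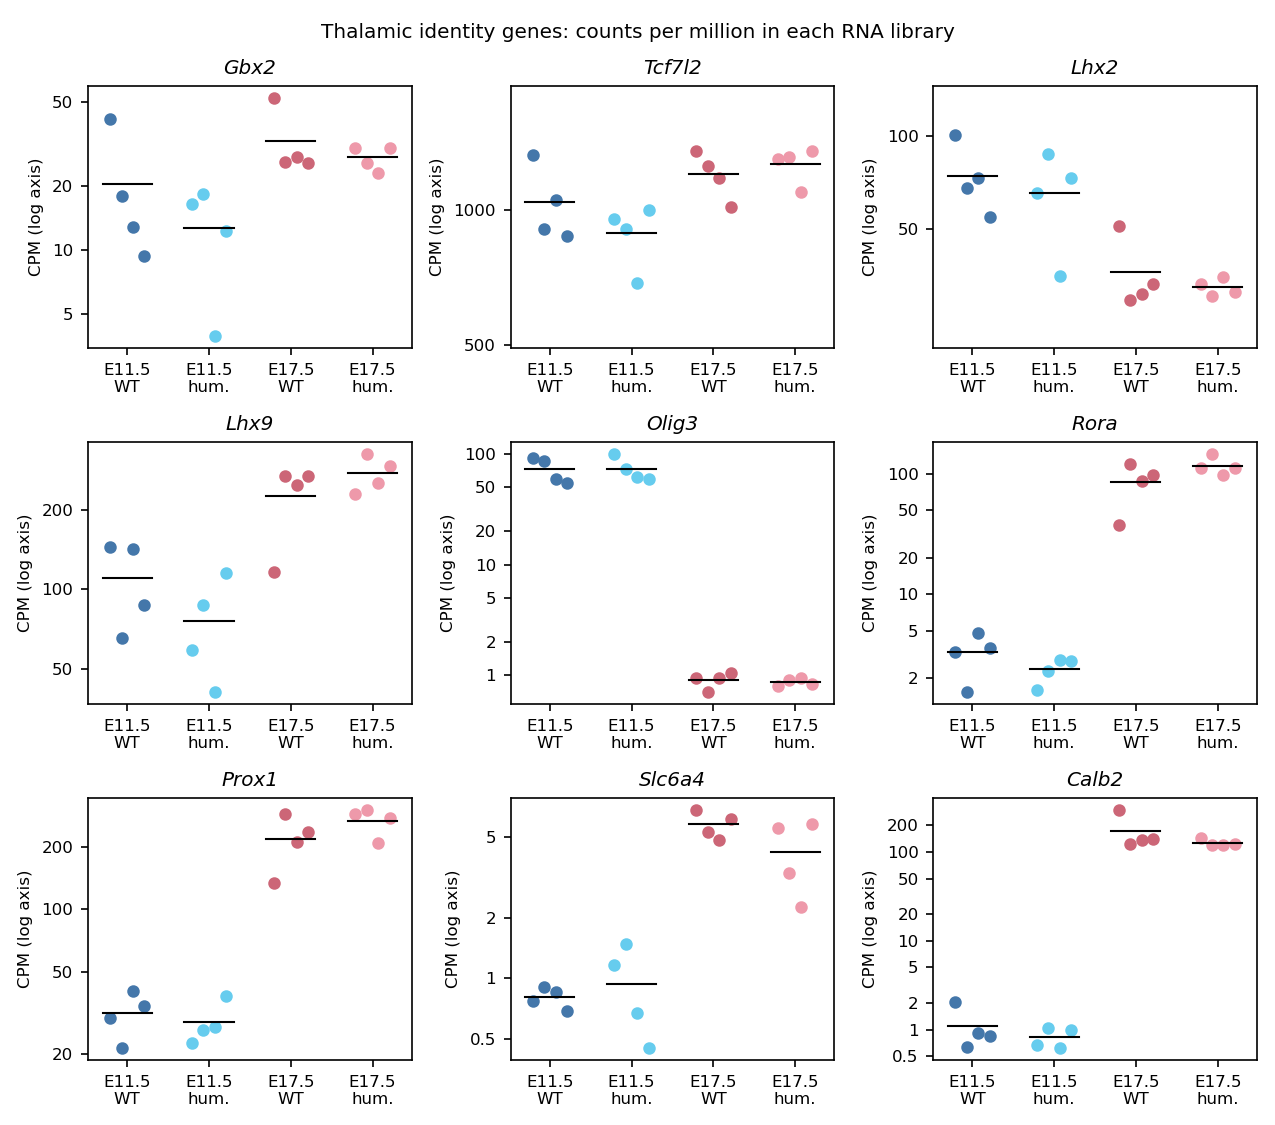
CPM (log axis) of each of the 9 genes in the 16 RNA libraries, by stage and genotype. Each point is 1 library of pooled embryos, in replicate order from left to right, and the line is the mean of the 4. Olig3 sits at 54.6 to 99.6 CPM at E11.5 and at 0.707 to 1.05 CPM at E17.5, Calb2 shows the opposite order, and Tcf7l2 is the highest of the 9 genes in every group.

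Olig3, the progenitor regulator, lies on chromosome 10 (19232281 to 19234352, plus strand, ENSMUSG00000045591.7). Its levels in wild type replicates 1 to 4 were 91.2, 86.6, 58.8 and 54.6 CPM at E11.5 and 0.941, 0.707, 0.945 and 1.05 CPM at E17.5. The stages did not come near each other, and the E17.5 values rest on 13 to 25 counts a library. The fall was 79.3-fold (log2 fold change -6.31, SE 0.27, edgeR adjusted p = 2.87e-07) in wild type and 83.7-fold in humanized (log2 -6.39, SE 0.22). Only 12 of 18583 genes had a lower wild type log2 fold change. Genes of the progenitor zones and boundaries fell with it: of 12 listed, 11 were tested, 8 fell and none rose. They included Neurog1 (log2 fold change -6.23, SE 0.43), Wnt3a (-5.34, SE 0.66), Dbx1 (-5.31, SE 0.32) and Neurog2 (-4.10, SE 0.24), of which Neurog1 and Neurog2 are proneural factors, Dbx1 a homeodomain factor of ventricular zone progenitors and Wnt3a a roof plate signal. Olig2, Nkx2-2 and Sox14, which mark the rostral thalamic domain and its derivatives among other cells, were at -0.35, -0.40 and -0.42 and did not pass. Without E17.5 wild type replicate 1 all 12 genes of the list were tested and called lower.

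Lhx2 (chromosome 2, 38229293 to 38259759, plus strand, ENSMUSG00000000247.12) was measured at 101, 67.4, 73.0 and 54.4 CPM in the E11.5 wild type replicates and at 51.0, 29.5, 30.8 and 33.0 CPM at E17.5. Every E11.5 value lay above every E17.5 value. The gene fell 2.06-fold in wild type (log2 fold change -1.04, SE 0.25, edgeR adjusted p = 0.00451) and 2.03-fold in humanized libraries (edgeR adjusted p = 0.000983). Lhx9 (chromosome 1, 138752924 to 138776341, minus strand, ENSMUSG00000019230.15) was at 145, 65.5, 143 and 87.1 CPM at E11.5 and at 116, 269, 249 and 268 CPM at E17.5 in wild type. The stages overlapped through E17.5 replicate 1, the lowest of its group. Its rise was 2.03-fold (log2 fold change 1.02, SE 0.33, edgeR adjusted p = 0.0225) in wild type and 3.59-fold in humanized libraries (edgeR adjusted p = 5.46e-05), where the stages did not overlap. The wild type call of Lhx9 was lost when any of 5 replicates was left out, namely E11.5 replicate 2 or 4 or E17.5 replicate 2, 3 or 4, with edgeR adjusted p from 0.0508 to 0.0718, and without E17.5 replicate 1 the rise was 1.23 on the log2 scale (edgeR adjusted p = 0.000361). So these relatives from one homeodomain class were called in opposite directions.

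Gbx2 (chromosome 1, 89855678 to 89858920, minus strand, ENSMUSG00000034486.9) varied widely between replicates of one group. Its wild type levels were 41.4, 18.0, 12.8 and 9.37 CPM at E11.5 and 52.2, 25.9, 27.4 and 25.8 CPM at E17.5. In humanized libraries they were 16.5, 18.3, 3.93 and 12.3 CPM at E11.5 and 30.1, 25.8, 23.0 and 30.5 CPM at E17.5. Replicate 1 was the highest of both wild type groups, and the wild type stages overlapped while the humanized stages did not. The wild type difference was 0.68 on the log2 scale (SE 0.43, edgeR adjusted p = 0.204) and the humanized rise 2.13-fold (log2 1.09, SE 0.34, edgeR adjusted p = 0.0104). Without E11.5 wild type replicate 1 the wild type value was 1.26 and passed (edgeR adjusted p = 0.0133), and without E17.5 wild type replicate 1 it was 0.35 (edgeR adjusted p = 0.422). With a replicate block it was 0.84 and passed (edgeR adjusted p = 0.022), although the replicate numbers were not found to pair the wild type stages. Gbx2 overlaps a gene on the opposite strand, D130058E05Rik. The counts used ignore strand and drop reads in such overlaps, and the deposited column that counts the library's strand gave 104 to 115% of the Gbx2 count used here. For Prox1, which overlaps Prox1os, the same share was 101 to 106%.

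Tcf7l2 (chromosome 19, 55730188 to 55922091, plus strand, ENSMUSG00000024985.21) was the most abundant of the 9 genes at both stages. Its wild type levels were 1329, 907, 1056 and 877 CPM at E11.5 and 1359, 1258, 1183 and 1019 CPM at E17.5, and the humanized levels were 955, 909, 686 and 1002 CPM, then 1302, 1315, 1098 and 1361 CPM. The wild type stages overlapped (log2 fold change 0.20, SE 0.18, edgeR adjusted p = 0.385) and the humanized stages did not, with a 1.42-fold rise (log2 0.50, SE 0.14, edgeR adjusted p = 0.00545). For Gbx2 and Tcf7l2 the stage change is not shown to differ between genotypes, as the interaction of genotype and stage was 0.41 (95% interval -0.91 to 1.74) and 0.31 (-0.18 to 0.79) on the log2 scale, with edgeR adjusted p = 0.707 and 0.482.

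Rora and Prox1, regulators of the maturing thalamus, rose in both genotypes. Rora (chromosome 9, 68561068 to 69295528, plus strand, ENSMUSG00000032238.18) went from 3.33, 1.54, 4.75 and 3.57 CPM in wild type at E11.5 to 37.7, 122, 87.0 and 98.4 CPM at E17.5. Even the lowest E17.5 library, replicate 1, was well above the highest at E11.5. The rise was 25.8-fold (log2 4.69, SE 0.44, edgeR adjusted p = 1.01e-05), and 48.7-fold in humanized libraries (log2 5.61, SE 0.21). Prox1 (chromosome 1, 189850232 to 189904637, minus strand, ENSMUSG00000010175.14) went from 29.99, 21.4, 40.5 and 34.0 CPM to 134, 287, 210 and 236 CPM, again lowest in E17.5 replicate 1 and with no overlap. It rose 6.82-fold (log2 2.77, SE 0.29, edgeR adjusted p = 1.83e-05) in wild type and 9.28-fold in humanized libraries (log2 3.21, SE 0.19). Of 25 other genes of thalamic neurons, 15 rose and 4 fell in wild type, with a median log2 fold change of 0.95. Those that rose included Necab1, a neuronal calcium-binding protein (5.48, SE 0.44), Ntng1, the axonal membrane protein netrin-G1 (4.48, SE 0.25), and Rorb, a nuclear receptor related to Rora (3.32, SE 0.43). The 4 that fell were Ror1 (-1.33), Lef1 (-1.07), Nr2f1 (-0.73) and Prkcd (-0.66). Lef1, the other TCF/LEF factor listed, thus fell while Tcf7l2 did not pass. Without E17.5 wild type replicate 1 the counts were 17 higher and 5 lower.

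Slc6a4 (chromosome 11, 76888903 to 76923169, plus strand, ENSMUSG00000020838.13) was among the weakest of the 9 genes. Its wild type levels were 0.769, 0.902, 0.860 and 0.689 CPM at E11.5, from 15 to 17 counts a library, and 6.85, 5.33, 4.88 and 6.20 CPM at E17.5. Each group was tight and the stages did not overlap. The gene rose 7.15-fold in wild type (log2 2.84, SE 0.24, edgeR adjusted p = 4.78e-06) and 4.46-fold in humanized libraries (log2 2.16, SE 0.39, edgeR adjusted p = 0.000278). Of 10 other genes that handle, sense or make serotonin, 8 were tested, 7 rose and none fell. Htr1b, a presynaptic serotonin receptor of thalamocortical axons, rose by 4.57 on the log2 scale (SE 0.52) to 25.2 CPM ± 12.1 (SD, n = 4). Slc18a2, the vesicular monoamine transporter, rose by 2.39 (SE 0.40) to 70.8 CPM ± 28.5 (SD, n = 4), Htr1d, a further serotonin receptor, by 2.701 (SE 0.40), and Tph1, an enzyme of serotonin synthesis, by 4.80 (SE 0.48) to 9.03 CPM ± 4.58 (SD, n = 4). Ddc, which makes serotonin from its precursor, was at 0.09 (edgeR adjusted p = 0.704). Tph2 and Fev, which define the serotonin neurons of the raphe, were too low to test, at 0.337 CPM ± 0.325 and 0.0236 CPM ± 0.0276 (SD, n = 4) in wild type at E17.5. Which cells held the RNA of the other serotonin genes, Tph1 included, was not tested. The summed level of the 10 genes in E17.5 wild type replicate 1 was 128 CPM against 233 to 290 CPM in the other replicates of that group, and without it the counts of calls were the same.

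Calb2 (chromosome 8, 110864128 to 110894881, minus strand, ENSMUSG00000003657.10) made the largest change of the 9 genes. In wild type it was at 2.05, 0.637, 0.910 and 0.852 CPM at E11.5, on 12 to 40 counts a library, and at 295, 122, 134 and 138 CPM at E17.5. In humanized E17.5 libraries it was at 143, 119, 119 and 121 CPM, so that 7 of the 8 E17.5 libraries lay within 119 to 143 CPM and wild type replicate 1 lay well above them. The rise was 154-fold in wild type (log2 7.26, SE 0.48, edgeR adjusted p = 1.14e-06) and 147-fold in humanized libraries (log2 7.20, SE 0.18), and without E17.5 wild type replicate 1 it was 6.87 on the log2 scale. Only 63 of 18583 genes had a higher wild type log2 fold change. Telencephalon markers also changed with stage: 4 of 7 rose and 2 fell, and their part in the Calb2 result was not tested. Other genes for calcium-binding proteins rose too, 7 of 7 tested out of 8 listed. They included S100b, a glial protein (log2 4.20, SE 0.58), Hpca, hippocalcin (3.73, SE 0.24), Calb1, calbindin (2.56, SE 0.35), and Scgn, secretagogin (2.23, SE 0.48), while Pvalb, parvalbumin, was too low to test. Among markers of the regions and cells that the dissection could hold, 4 of 6 habenula, 4 of 6 prethalamus and 3 of 5 tested hypothalamus markers rose in wild type, with 1, 0 and 0 falling. Of the diencephalon markers 8 of 10 fell, of the pretectum and midbrain markers 6 of 8, and none of either rose. Choroid plexus and meninges markers split into 3 higher and 2 lower of 6, and blood and vessel markers into 2 and 1 of 7.

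**Figure D2:**
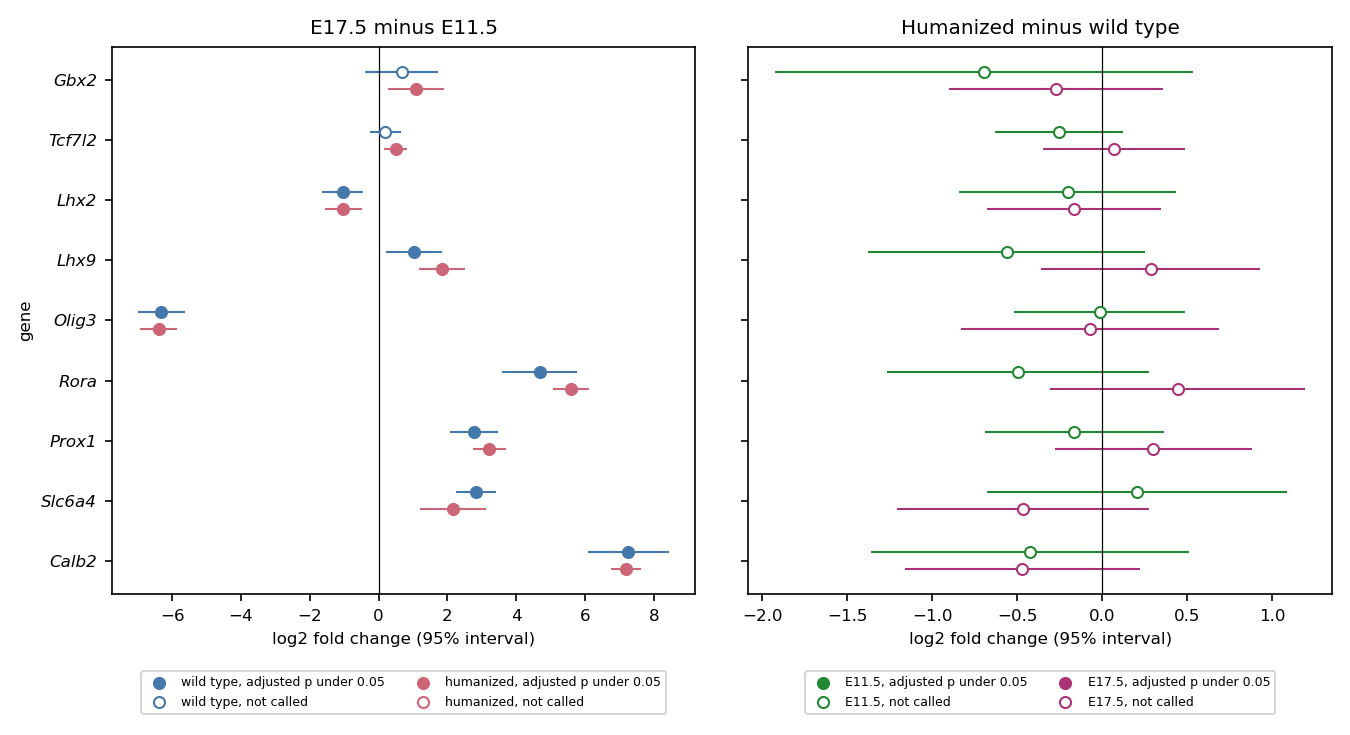
Log2 fold changes of the 9 genes from edgeR with 95% intervals, for E17.5 minus E11.5 in each genotype (left) and for humanized minus wild type at each stage (right). Filled points have an adjusted p under 0.05. On the left all but the wild type points of Gbx2 and Tcf7l2 are filled, and on the right no point is filled and every interval crosses 0.

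Levels of different genes were compared as RPKM, the CPM divided by the exon length in kilobases. In wild type at E11.5 the order was Tcf7l2 at 232 ± 46.0, Olig3 at 35.1 ± 9.05, Lhx2 at 21.7 ± 5.74, Lhx9 at 14.1 ± 5.13, Gbx2 at 9.47 ± 6.71 and Prox1 at 3.51 ± 0.890 (SD, n = 4), with Calb2, Rora and Slc6a4 at 0.586, 0.290 and 0.225 on average. The ranges of the 4 replicates overlapped between all neighbours in that order except Tcf7l2 and Olig3, and Prox1 and Calb2. At E17.5 the order was Tcf7l2 at 268 ± 32.0, Calb2 at 90.9 ± 43.3, Lhx9 at 29.0 ± 9.48, Prox1 at 24.2 ± 7.09, Gbx2 at 15.2 ± 6.01, Lhx2 at 10.6 ± 2.96, Rora at 7.58 ± 3.11, Slc6a4 at 1.63 ± 0.247 and Olig3 at 0.440 ± 0.0706 (SD, n = 4). There the ranges from Lhx9 through Rora overlapped between neighbours, and the others did not. Tcf7l2 thus stayed first while Olig3 went from second to last.

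The question of the study for gene expression was whether the humanized allele changed it within a stage, and for these 9 genes no difference passed the test. At E11.5 edgeR called 0 of 9 (0% of 17816 genes, and 5.94% at an unadjusted p below 0.05). At E17.5 it also called 0 of 9 (0% of 18763 genes, with 1.1% at an unadjusted p under 0.05). DESeq2 called none of the 9 either, with 2 and 1 genes called over all genes. The largest difference at E11.5 was that of Gbx2, -0.70 on the log2 scale (SE 0.50, edgeR adjusted p = 0.582), with a 95% interval from -1.93 to 0.53, wide enough to hold both a large fall and a small rise. It rested on 1 library: without E11.5 wild type replicate 1 it was -0.088, with Rora at -0.49 then the largest, and with any other replicate left out it lay between -0.94 and -0.41. Lhx9 was at -0.56 (95% interval -1.38 to 0.25), Rora at -0.50 (-1.27 to 0.28) and Olig3 at -0.02 (-0.52 to 0.49). At E17.5 Calb2 was at -0.47 (95% interval -1.16 to 0.22), Slc6a4 at -0.47 (-1.21 to 0.27), Rora at 0.44 (-0.31 to 1.19) and Tcf7l2 at 0.07 (-0.35 to 0.48). The 2 genotypes overlapped in level for every gene, so that 0 of 9 were apart at either stage, beside 2.47% of all genes on the earlier day and 1.24% on the later. At E11.5 the humanized libraries had Olig3 at 99.6, 73.4, 61.3 and 58.7 CPM, Lhx9 at 59.1, 87.4, 40.8 and 115 CPM, and Rora at 1.61, 2.29, 2.85 and 2.79 CPM, where replicate 3 was the lowest of the 4 for Lhx9 and Gbx2 alike. At E17.5 they had Lhx9 at 229, 326, 252 and 293 CPM, Rora at 113, 147, 97.9 and 112 CPM, and Prox1 at 286, 301, 208 and 275 CPM. The humanized Slc6a4 levels at E17.5 were 5.55, 3.34, 2.25 and 5.80 CPM, which overlap the wild type ones. Several E17.5 differences moved towards 0 without wild type replicate 1. Then Calb2 was at -0.08, Rora at 0.19, Lhx9 at 0.06, Gbx2 at 0.05 and Lhx2 at 0.05, the last pair from -0.27 and -0.17 with it, and Slc6a4 was at -0.38. The interaction of genotype and stage was called for none of the 9 genes by edgeR (0% of 20234 genes called, 7.96% at an unadjusted p under 0.05), with the largest values for Rora (0.92, 95% interval -0.09 to 1.92) and Lhx9 (0.83, -0.16 to 1.81).

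Promoters were windows of 1000 bp either side of the starts of a gene's protein-coding transcripts. H3K4me3 peaks lay there in every wild type list for 8 of 9 genes at the first stage and 9 of 9 at the second, beside 91.8% and 92% of 14336 tested protein-coding genes. H3K27ac did so for 6 and then 8 of 9 genes (71.8% and 85.2% of all genes). H3K27me3 did so for 8 and then 9 of 9 genes, against 27.1% and 25.8% of all genes, and H3K4me3 and H3K27me3 together marked 7 and then 9 of 9, against 26.2% and 24.6%. All 3 marks together lay at 5 and then 8 of 9 promoters (12.5% and 18.2% of all genes). Bulk tissue does not show whether such marks share a cell or come from different cells. Peaks were called for each replicate without a stated depth, and 2 lists against 3 cannot reach p = 0.05 in an exact permutation test, so peak values are given without a test. The median fold enrichment over all peaks of a wild type list was 18.2 and 21.8 for H3K4me3 at E11.5 and 28.1 to 29.5 at E17.5, 4.81 and 5.01 then 4.48 to 4.9004 for H3K27ac, and 2.96 and 3.17 then 2.69 to 2.77 for H3K27me3, which bears on every comparison of fold between stages.

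**Figure D3:**
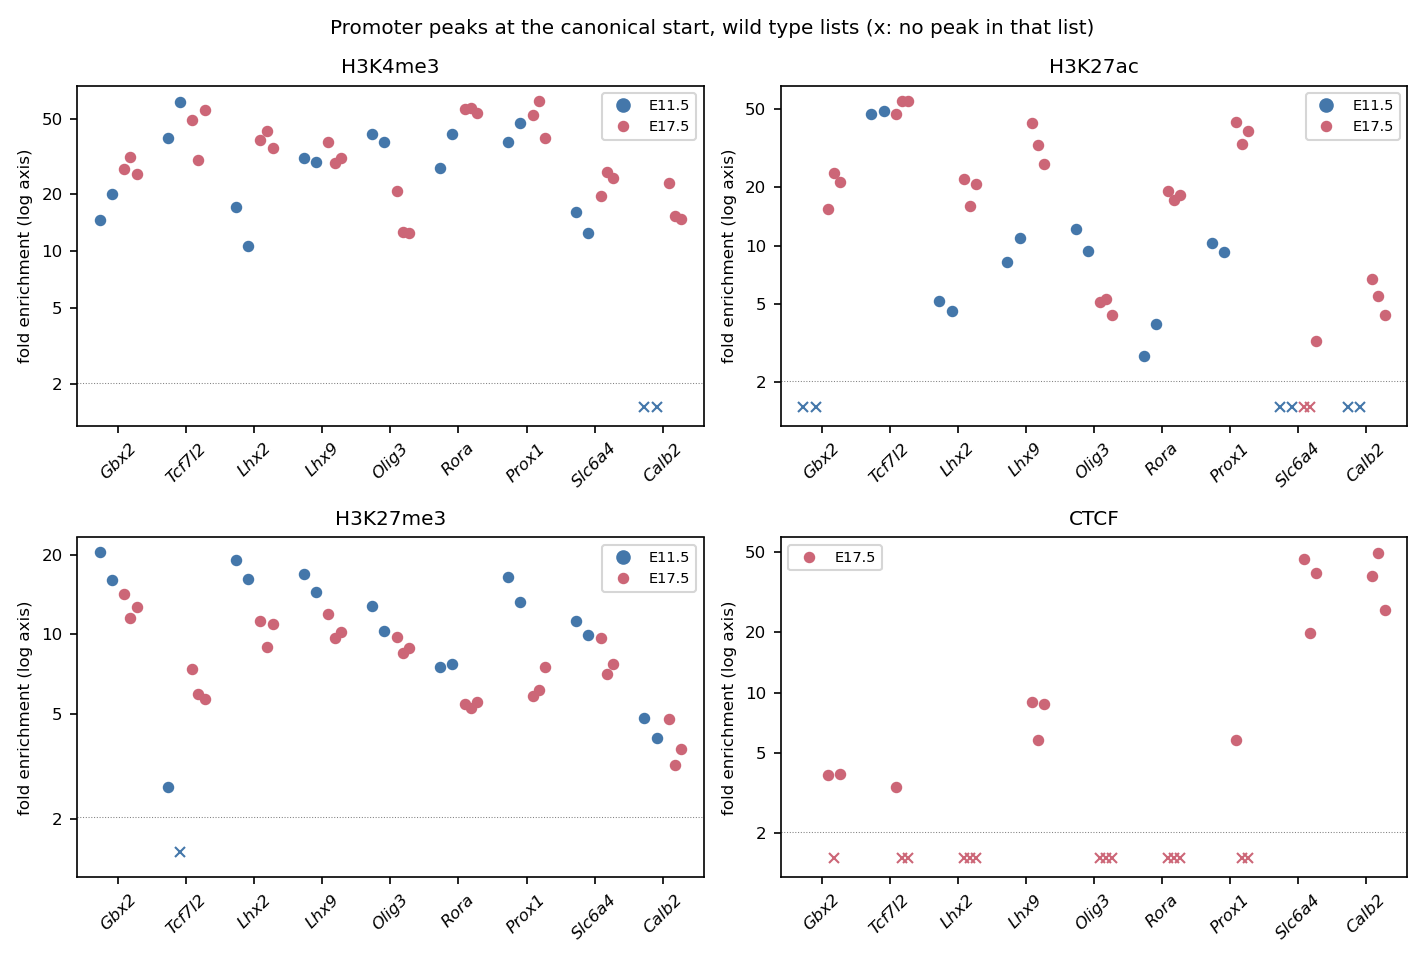
Fold enrichment (log axis) of the strongest peak within 1000 bp of the canonical start of each gene, for 4 marks in the wild type lists. Each point is 1 replicate list, with E11.5 in blue and E17.5 in red, and a cross marks a list with no peak. Olig3 is the gene whose H3K27ac points are all lower at E17.5, going from 9.32 and 12.1 to between 4.43 and 5.36, and H3K27me3 at Prox1 goes from 13.2 and 16.5 to between 5.81 and 7.49.

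Olig3 was the gene whose promoter lost length in H3K4me3 and H3K27ac. Its H3K4me3 peak was 12.8 and 12.6 kb long in the E11.5 wild type lists and 1.21, 1.39 and 1.31 kb long at E17.5, with fold enrichment going from 41.8 and 37.7 to 20.7, 12.6 and 12.5. Its strongest H3K27ac peak went from 7.11 and 1.89 kb to 1.005, 0.675 and 0.685 kb. In the second E11.5 list a longer but weaker H3K27ac peak, of 4178 bp, also lay in the promoter. Lengths given for single genes are those of the peak with the highest fold. Its H3K27me3 domain covered the whole gene at both stages and was 35.8 and 34.4 kb, then 51.0, 41.9 and 43.4 kb long. The humanized H3K4me3 lists gave the same picture, with 12.6 and 12.4 kb and then 1.12, 1.14 and 1.15 kb.

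In the wild type lists Calb2 and Gbx2 gained promoter peaks, while humanized E11.5 lists already had weak ones. These were H3K4me3 at Calb2 in 2 of 2 lists (5.99 and 3.06-fold) and H3K27ac at Gbx2 in 1 of 2 (3.21-fold). At Calb2 neither E11.5 wild type list had an H3K4me3 peak, and the E17.5 lists had one of 22.9, 15.4 and 14.7-fold, a pattern shared by 0.711% of genes. H3K27ac followed the same pattern at Calb2, at 6.75, 5.51 and 4.40-fold, and at Gbx2, at 15.3, 23.4 and 21.004-fold over 7.83 to 9.08 kb (10.3% of genes). H3K4me3 was already present at Gbx2 at E11.5, at 14.7 and 20.05-fold over 2.87 and 5.34 kb, then 27.1, 31.4 and 25.7-fold over 8.86 to 9.54 kb. Gbx2 kept a domain of H3K27me3 over its whole gene, of 30.6 and 30.4 kb and then 40.8, 35.6 and 34.4 kb. Its promoter, the first printed above, had a ratio of observed to expected CpG of 0.884 over 500 bp either side of the start. That was higher than 90.1% of 21603 promoters, while Olig3 had 0.538 and Calb2 0.521, under the median of 0.579. Over the 250 bases printed, however, Calb2 held 20 CpGs, more than the 17 of Gbx2.

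Over all genes with a promoter peak, the median length of the longest was 1010 and 957 bp for H3K27ac in the E11.5 lists and 1583 to 1693 bp at E17.5, and for H3K27me3 2944 to 3232 bp and then 3729 to 4259 bp, so both marks were longer at E17.5 in general. For H3K4me3 it was 2266 to 2321 bp and then 2307 to 2378 bp. These medians are of the longest peak, whereas the lengths below are of the strongest. At Lhx2, Lhx9, Prox1 and Rora the H3K27ac peak over the canonical start was present at both stages and longer at E17.5. For Lhx2 it went from 1.24 and 0.490 kb to 10.2, 10.4 and 9.96 kb, although the RNA of Lhx2 fell. For Lhx9 it went from 2.43 and 1.53 kb to 19.4, 21.6 and 21.9 kb, for Prox1 from 2.42 and 2.22 kb to 18.2, 18.5 and 18.6 kb, and for Rora from 0.277 and 0.316 kb to 2.94, 6.97 and 6.88 kb. Tcf7l2 was marked broadly at both stages, with H3K27ac over its 5′ start at 47.1 and 48.9-fold and then 46.8, 54.5 and 54.5-fold. A second group of Tcf7l2 starts inside the gene lay in an H3K27ac peak of 19.8 and 20.004 kb and then 38.4, 38.3 and 38.5 kb. Slc6a4 had H3K4me3 in every list (16.1 and 12.5-fold, then 19.7, 26.2 and 24.4-fold) but no H3K27ac at E11.5 and a peak of 3.27-fold in 1 of 3 lists at E17.5, although its RNA rose.

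**Figure D4:**
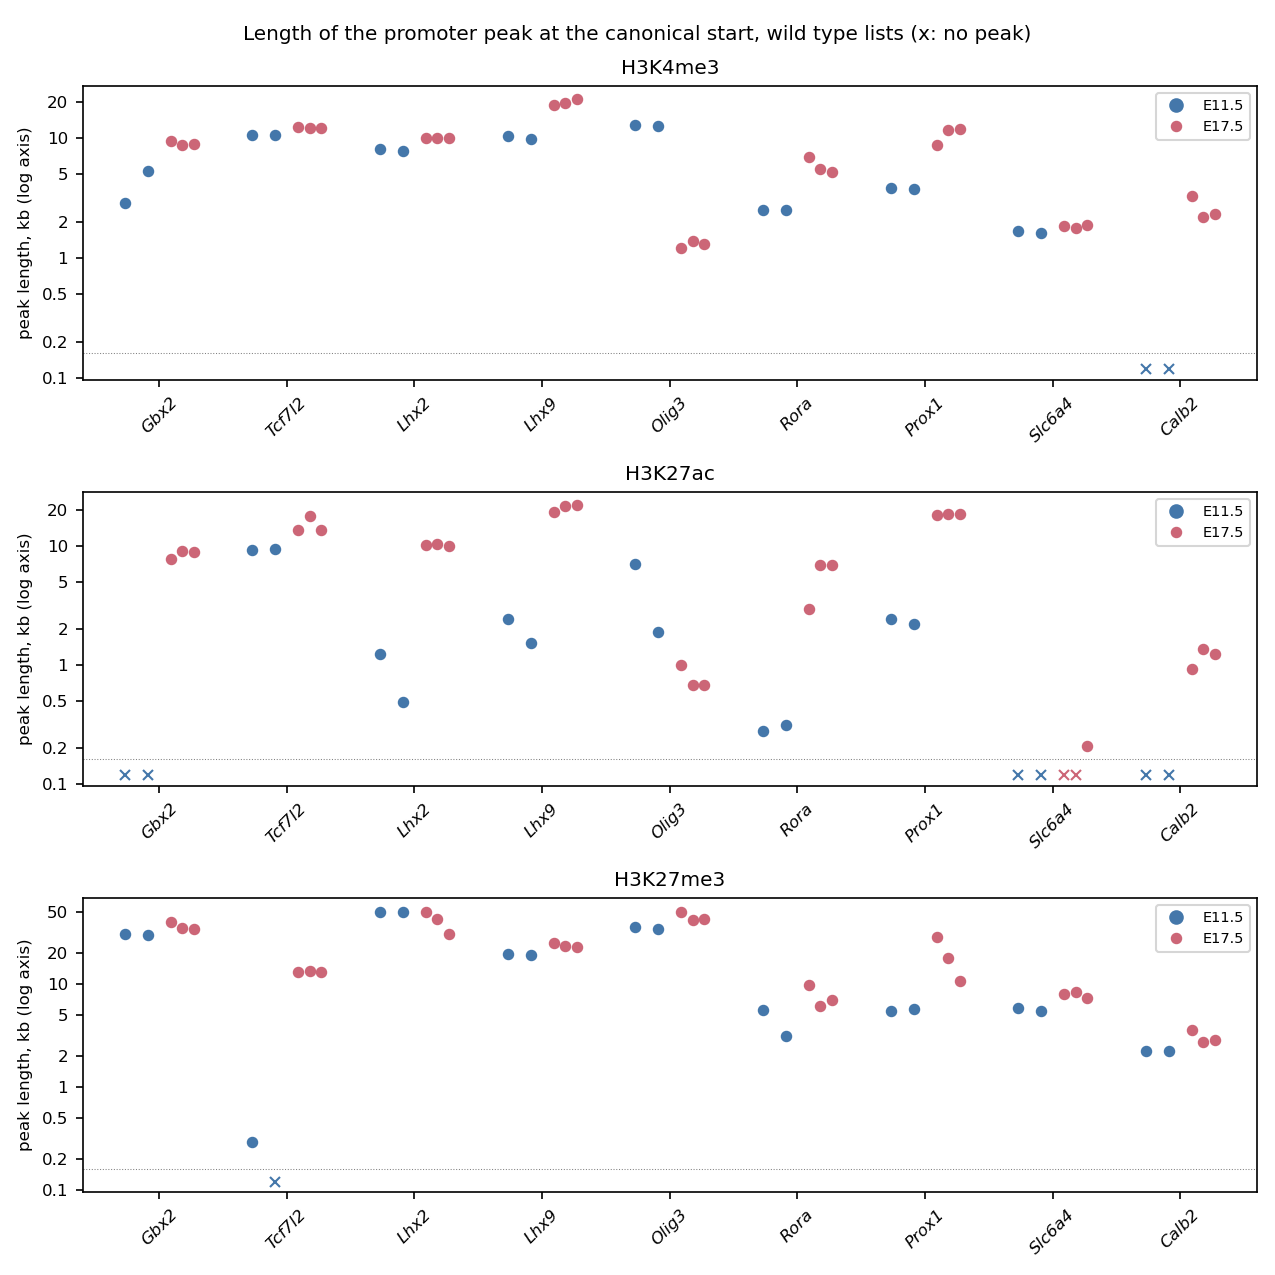
Length in kb (log axis) of the strongest promoter peak at the canonical start of each gene, for H3K4me3, H3K27ac and H3K27me3 in the wild type lists. Each point is 1 replicate list, with E11.5 in blue and E17.5 in red, and a cross marks a list with no peak. Olig3 alone is shorter at E17.5 in H3K4me3 and in H3K27ac, and Gbx2, Lhx2 and Olig3 hold H3K27me3 domains of over 30 kb at both stages.

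H3K27me3 differed among the genes mainly in extent. It covered 100% of the gene bodies of Gbx2, Lhx2 and Olig3 at E11.5, and 100%, 97.9% ± 3.70 and 100% (SD, n = 3) at E17.5. Lhx9 was covered over 72.5% ± 1.11 (SD, n = 2) and then 88.6% ± 2.53 (SD, n = 3). Prox1 went from 8.68% ± 1.33 (SD, n = 2) to 49.0% ± 10.5 (SD, n = 3) while its promoter fold enrichment went from 16.5 and 13.2 to 5.81, 6.15 and 7.49. At Tcf7l2 only 1 of 2 lists had the mark at promoters at E11.5, as a peak of 0.294 kb at the 5′ start and of 0.866 kb at the internal starts. At E17.5 all 3 lists had a domain of 13.2 to 13.4 kb at the 5′ start, 5.70 to 7.37-fold, and another of 19.9 to 22.9 kb at the internal starts, 4.57 to 5.60-fold. The mark covered 0.902% of the gene in the E11.5 list that had it and 19.0% ± 0.552 (SD, n = 3) at E17.5. Slc6a4, Calb2 and Rora were covered over at most 18.8%, 11.9% and 7.89% in any list. The 3 genes covered over nearly their whole length were Olig3 and Lhx2, which fell in wild type, and Gbx2, which did not pass. These shares depend on gene length. Olig3 spans 2072 bp, Gbx2 3243 bp and Lhx2 30467 bp, against 30754 bp for Calb2, 191904 bp for Tcf7l2 and 734461 bp for Rora. At E17.5 the window around the canonical start was covered over 100% in every list, except at Prox1 (lowest 66.9%) and Calb2 (lowest 92.6%).

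CTCF peaks lay at a promoter in every wild type list at E17.5 for 5 of 9 genes, beside 52.9% of all genes. The strongest were those of Slc6a4, at 46.6, 19.7 and 39.4-fold, and of Calb2, at 38.0, 49.9 and 25.9-fold. Rora (12.5, 10.9 and 17.1-fold at its 5′ start), Tcf7l2 (9.31, 8.49 and 12.7-fold at its internal starts) and Lhx9 (8.94, 5.83 and 8.81-fold) were weaker. At Calb2 the summits lay 34, 38 and 54 bases upstream of the start, next to the core in capitals in the promoter printed above. Slc6a4 showed no such core within 50 bases of its summits, which lay 608 to 617 bases upstream. Over all 78657 CTCF peaks of wild type replicate 1 the core was within 50 bases of the summit in 31.7%, and in 56.3% of the 7868 peaks with the highest fold enrichment. The core, on either strand, were in the promoters (250 bases before to 50 after the start) of Tcf7l2, Prox1 and Calb2, and in 9.32% of all 21603. Both strands were also searched for 4 shorter motifs. The homeodomain core TAATTA was in none of the 9 windows and in 5.42% of all promoters. The TCF/LEF core CTTTGAT was likewise in none, and in 3.39% of all. The nuclear receptor sequence AGGTCA was in none, and in 15.0% of all. The GC box GGGCGG was in 5 of 9 and in 42.8% of all.

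The promoter peaks of wild type and humanized mice were set side by side for 98 combinations of start, mark and stage. In 85 of them both genotypes had the peak in all, in some or in none of their lists alike. In 2 combinations every list of a genotype had it and none of the other. At Calb2 the humanized E11.5 lists had H3K4me3 peaks of 5.99 and 3.06-fold, of 0.510 and 0.343 kb, where wild type had none. At the 5′ start of Rora the wild type E17.5 lists had H3K27me3 of 3.54, 2.78 and 3.68-fold where humanized had none. Both are weak beside the other peaks of those marks at these genes, and they were not tested.

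Distal regions were merged peaks called in every wild type list of a stage, within 100000 bp of the canonical start and over 1000 bp from any annotated start. Around the 9 genes there were 17 H3K27ac regions at E11.5 and 58 at E17.5, where the median gene of all 14336 had 0 and 2. The E11.5 count was 31 to 34 when either of its lists was left out, since a region then needed to be in 1 list only, and the counts were 9 and 30 with peaks of a −log10 q of at least 5. Tcf7l2 had 3 and then 20, more than 99.9% of genes, and 14 of the 20 had no peak in any E11.5 wild type list. Calb2 had 0 and then 10 (9 of them with no E11.5 peak), more than 97.4% of genes. Rora went from 0 to 7, Gbx2 from 1 to 8, Prox1 from 3 to 7 and Slc6a4 from 0 to 4. Olig3 went the other way, from 6 to 0, Lhx9 went from 3 to 1, and Lhx2 had 1 at both stages. Of the 6 Olig3 regions, 4 had no peak in any E17.5 wild type list. At Olig3, Calb2, Rora, Prox1 and Slc6a4 the count moved in the direction of their RNA. Gains were general, however: over the genome, distal H3K27ac regions found in every wild type list numbered 10709 at E11.5 and 30749 at E17.5. The wild type lists held 36150 and 32418 peaks, then 62720, 74802 and 77419. Among these genes the falls at Olig3 and Lhx9 went against that trend. At Lhx9 the count went opposite to the RNA, and at Lhx2 it stayed while the RNA fell. Yet every E11.5 region of both genes still overlapped H3K27ac in at least 1 E17.5 list. The E17.5 region of each had no E11.5 peak. A peak that reaches within 1000 bp of a start is not counted as distal, so a longer promoter peak can take in such regions. The RNA of Tcf7l2 and Gbx2 did not pass in wild type. As windows of neighbouring genes overlap, a region near one of the 9 genes can belong to another gene.

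**Figure D5:**
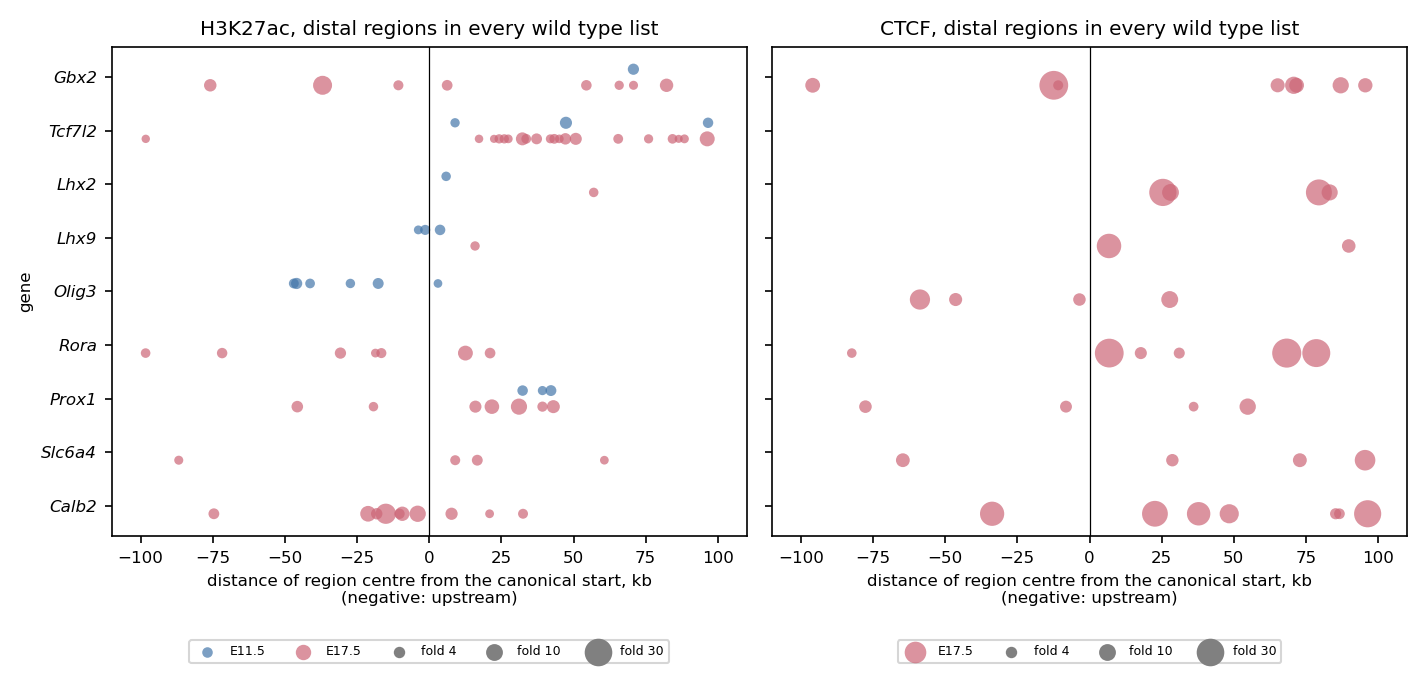
Distal H3K27ac (left) and CTCF (right) regions called in every wild type list, by the distance in kb of their centre from the canonical start of each gene. The area of a circle is proportional to the mean fold enrichment, blue is E11.5 and red is E17.5. Tcf7l2 has 20 E17.5 H3K27ac regions and no distal CTCF region, and Olig3 has 6 H3K27ac regions at E11.5 and none at E17.5.

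The strongest distal H3K27ac region of all lay 15.1 kb upstream of Calb2 (chr8:110908290-110911575), at 18.4, 21.4 and 16.7-fold in the E17.5 wild type lists. That of Gbx2 lay 37.0 kb upstream (chr1:89895019-89896761), at 17.0, 16.2 and 16.7-fold, and also carried H3K4me3 at 34.0-fold ± 6.81 (SD, n = 3). At E11.5 H3K4me3 was already there, at 37.9 and 45.003-fold, with no H3K27ac region called in both lists. Inside their genes lay the strongest regions of Prox1 (chr1:189868864-189875395, 12.1-fold ± 2.86), Tcf7l2 (chr19:55824619-55828365, 10.4-fold ± 0.440) and Rora (chr9:69207757-69211223, 10.2-fold ± 0.322, SD, n = 3). The strongest E11.5 region of Olig3 (chr10:19185978-19186678) lay 46.0 kb upstream, at 5.19 and 6.42-fold. In the central 300 bases of the 58 regions at E17.5, CTTTGAT was found in 4, TAATTA in 3 and AGGTCA in 6, beside 5.24%, 7.79% and 16.6% of all 30749 such regions.

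Distal H3K27me3 regions numbered 7 around the 9 genes at E11.5 and 29 at E17.5, where the median gene had 0 at both stages. More peaks of this mark were called at E17.5 in general: the wild type lists held 19166 and 13850, then 43700, 27452 and 33223. Tcf7l2, with 1 region and then 2, had more than 76.8% and then 76.6% of genes. Gbx2 went from 3 to 8, Olig3 from 0 to 7 and Prox1 from 0 to 4, while Lhx9 had none. Without either E11.5 list the E11.5 count around the 9 genes was 15 to 20, and with a −log10 q of at least 5 the counts were 1 and 5. The strongest at E11.5 (chr1:89894102-89900423) held the H3K27ac region 37.0 kb upstream of Gbx2, at 11.004 and 8.602-fold. At E17.5 a region of 16.4 kb lay over it (chr1:89885312-89901740), at 4.86, 4.39 and 4.29-fold. Distal H3K4me3 regions numbered 10 and then 7.

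Distal CTCF regions numbered 39 around the 9 genes at E17.5, from 0 at Tcf7l2 to 8 at Gbx2, where the median gene had 5. The strongest near Gbx2 (chr1:89870670-89871928) lay 12.4 kb upstream and reached 45.4, 34.5 and 34.7-fold, and that near Lhx2 (chr2:38265882-38266484) lay 25.4 kb downstream of the start, outside the gene, and reached 28.9, 36.9 and 36.8-fold. In both, all 3 summits lay within 50 bases of the cores shown in capitals above. The strongest near Rora (38.9-fold ± 6.46), Calb2 (33.9-fold ± 5.23), Lhx9 (27.6-fold ± 6.04), Slc6a4 (19.6-fold ± 1.93), Olig3 (18.8-fold ± 7.08) and Prox1 (12.3-fold ± 3.76, SD, n = 3) were also called in every list, and of these only that of Calb2 had the core at all 3 summits.

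The genes most like each of the 9 were sought over the 16 libraries by the root mean square difference of log2 CPM after centring each gene on its own mean, among 14826 protein-coding genes. Because stage dominates these libraries, likeness mostly means a stage change of the same size. The nearest to Olig3 were Hmga2 (0.375) and Gabrp (0.396), to Calb2 Cpne7 (0.388) and Shisa9 (0.423), and to Rora Map9 (0.168) and Samd12 (0.199). Prox1 was nearest to Sorcs1 (0.129) and Mblac2 (0.143), Slc6a4 to Rtn4r (0.327) and Plekhb1 (0.331), and Lhx9 to Aldh1l2 (0.190) and Rapgef5 (0.216). Lhx2 was near to Lhx1 (0.216), another LIM homeodomain gene, Tcf7l2 to Tle4 (0.122), a co-repressor gene, and Exoc3 (0.143), and Gbx2 to Prdm8 (0.378) and Sp9 (0.411).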

How the data were processed

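Counts as deposited by the authors were whole reads per gene from STAR (2.7.9a in the submitters' processing notes), aligned to mm39 and counted without strand. Libraries were polyA-selected. Peaks were called by the authors in each replicate with MACS2 (2.2.7.1) after Bowtie2 (2.4.2), without pooling, humanized reads being mapped to mm39 with the human hs754 sequence in place. The deposited lists give a fold enrichment (ratio), a −log10 p and −log10 q, and a whole-number score. In narrow lists the fold is that at the summit. H3K27me3 lists have the broad layout, where fold is a mean over the peak, so folds of this mark and of the others are not on one scale. Their calling is not given in the sources used here. The H3K27ac antibody is described by the study as also binding acetylated H2B.

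Here genes passing filterByExpr were fitted with edgeR 4.0.16 (R 4.3.3, TMM) on the 8 samples of a comparison, or all 16 for the interaction. DESeq2 1.42.0, other normalization, no filter, strand counts, a replicate block and left-out replicates were alternatives, as were other peak windows, overlaps and thresholds. CPM and RPKM divide by counts on genes, which leaves out the 48.1 to 58.4% of reads assigned to no gene. Gene models were GENCODE vM39, in which 56236 of 56923 deposited IDs were found. The fit was tested on simulated data with known changes. Of 2-fold changes it called 73.1% between genotypes at E11.5, 16.4% at E17.5 and 4.48% for the interaction. For stage it called 10.4% of them in wild type and 61.2% in humanized. Of 4-fold changes it called 93.9%, 83.3%, 63.6%, 80.3% and 93.9% in the same order. An uncalled difference of 2-fold can therefore be missed. Replicate numbers did not pair the samples throughout (see the closing section). Each replicate is a pool from 1 litter. Named genes were all 9 genes, for each other list up to 4 with the largest absolute change among those called in the wild type stage comparison, and the 2 most alike genes. Olig2, Nkx2-2, Sox14, Ror1, Lef1, Nr2f1, Prkcd, Ddc, Tph2, Fev and Pvalb were named after their values were seen. Genes and lists were chosen with earlier results of these data known. Some genes that this rule would name are not reported here. 24 input libraries were not analysed here.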

Additional observations from a re-analysis of the deposited data

Results flagged for a closer look

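In 5 of 36 groups of 4 libraries (9 genes in 4 groups), 1 library was farther from the others than Dixon's 95% critical value allows. Chance flags about 1 in 20 such groups. E17.5 wild type replicate 1 was that library in 4 groups: Gbx2 was at 52.2 CPM with the nearest other replicate at 27.4 CPM, Lhx2 at 51.0 CPM with the nearest at 33.0 CPM, Calb2 at 295 CPM with the nearest at 138 CPM, and Lhx9, the only one of the 4 that was low there, at 116 CPM with the nearest at 249 CPM. In E17.5 humanized replicate 1 Calb2 was at 143 CPM with the nearest other replicate at 121 CPM. In each case the library carries the number 1, and the labels give no batch for that number.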

How the results depend on the processing

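Of 252 stage log2 fold changes of the 9 genes under an alternative, 245 kept their direction and side of the threshold, and 0 reversed. Samples with the same replicate number did not deviate together throughout. Between genotypes at E11.5 the correlations were 0.033 to 0.108. At E17.5 they were 0.466, 0.484, 0.051 and 0.154 for replicates 1 to 4, and replicates 1 and 2 correlated best with their own number. Between stages they ranged from -0.450 to 0.294. The main fits hold no block. With a replicate block Gbx2 passed in the wild type stage comparison (log2 fold change 0.84, edgeR adjusted p = 0.022), which made 8 of 9 genes called, and the block changed no other call of the 9 genes. Some uncalled differences changed sign. With one replicate left out at a time, the genotype difference ranged at E11.5 from -0.19 to 0.11 for Olig3, -0.11 to 0.44 for Slc6a4 and -0.61 to 0.035 for Calb2, and at E17.5 from -0.36 to 0.047 for Gbx2, -0.23 to 0.050 for Lhx2 and -0.15 to 0.021 for Olig3. The interaction ranged from -0.18 to 0.73 for Gbx2, -0.19 to 0.24 for Lhx2, -0.19 to 0.10 for Olig3 and -0.51 to 0.33 for Calb2. In a single fit of all 16 libraries Olig3 was at 0.0087 at E11.5. The causes were not tested. Over all genes, DESeq2 called 2 at E11.5 and 1 at E17.5 between genotypes, and the fit of all 16 libraries 1 at E11.5, where edgeR called 0.

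Peak counts depended on the rule more than RNA calls did. Where most of a peak had to lie in the promoter, the genes with a peak in every list were 5 (E11.5) and 3 (E17.5) for H3K4me3, 3 for H3K27ac at E17.5, and 1 and 1 for H3K27me3, since long peaks exceed the window. With the canonical start alone CTCF was at 3. With a −log10 q of at least 5, distal regions fell from 10 and 7 to 6 and 4 for H3K4me3, from 17 and 58 to 9 and 30 for H3K27ac and from 7 and 29 to 1 and 5 for H3K27me3. Within 50000 bp there were 18 H3K27me3 regions at E17.5 and 18 CTCF regions. With one E11.5 list left out, so that the other stood alone, there were 31 to 34 H3K27ac and 15 to 20 H3K27me3 regions. The median gene coverage by H3K27me3 was 14.2% at E11.5 with 5000 bp added either side (11.9% without) and 27.8% at E17.5 at the stricter threshold (49.0% without).

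Without E17.5 wild type replicate 1, an alternative chosen after seeing the data, 1 diencephalon marker was called higher and 3 blood and vessel markers lower. Peak lists carry no depth, and the low counts behind Olig3 at E17.5 and behind Slc6a4 and Calb2 at E11.5 limit the precision of those levels.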
